A study of Mus musculus with 3 samples.

Results

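SOX2 binding at the loci of 3 forkhead transcription factor genes, Foxp1, Foxa1 and Foxa2, was described in mouse gastric glands isolated from the antrum, the part of the stomach that adjoins the intestine. The members were every chromatin immunoprecipitation sequencing (ChIP-seq) peak that overlapped a fixed window at each locus on the mouse build mm9. The windows were chr6:98775000-99573000 for Foxp1, chr12:58541000-58750000 for Foxa1 and chr2:147768000-147973000 for Foxa2. They held 24 of the 7213 peaks of the wild-type list and 2 of the 887 peaks of the knockout list. The loci were chosen by what the lists hold there, that is by the number, position and score of their peaks, so these values are a description and no test rests on them.

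Both genotypes carried Sox2 alleles flanked by loxP sites (Sox2 fl/fl) on a mixed C57BL/6 x 129 background. The knockout also carried Rosa26CreER, a tamoxifen-inducible Cre recombinase driven by the Rosa26 locus, which is active in most cell types. The wild type had no Cre at that locus. Mice of both genotypes were given tamoxifen when 8 weeks old, and their stomachs were collected 2 weeks afterwards. Each genotype had 1 SOX2 ChIP library, made with the same goat antibody, so there is no replicate error and no test between genotypes. The sources used here do not say whether a library came from 1 mouse or several. The input library was not analysed here.

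SOX2 is a high-mobility-group transcription factor that marks foregut endoderm and some cells of the adult gastric epithelium. Foxa1 and Foxa2 encode closely related forkhead proteins that bind compacted chromatin early in endoderm development, and they remain expressed in the epithelium of the stomach and gut. Foxp1 encodes a forkhead protein of another subfamily that acts mainly as a transcriptional repressor. A ChIP peak marks a stretch of DNA recovered with the antibody above background. A window peak is a position near a gene and does not show that the gene is regulated from there. Glands are a mixture of cells, so fewer cells holding SOX2 and less SOX2 per cell cannot be told apart in these lists. Whether a knockout peak marks SOX2 that remained after deletion was not tested.

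Reference sequence of the peaks themselves on mm9 was not used here, so no peak sequence is shown. As context for the 3 genes, RefSeq promoter windows on GRCm38.p6 (250 bases before to 50 after an annotated gene start) were searched on both strands for ACAAAG and ACAATG, core letters of sites that SOX proteins bind. The table held 7 such windows, 3 for Foxp1, 1 for Foxa1 and 3 for Foxa2. ACAAAG or its complement CTTTGT was found in 2 of 3 Foxp1 windows, in the Foxa1 window and in 1 of 3 Foxa2 windows, and it occurred in 18.7% of all 32851 promoter windows. ACAATG or its complement CATTGT was found in 1 Foxp1 window and in 12.6% of all windows. Stretches of 30 bases around matches lying before the gene start follow, 5′ to 3′ on the gene's strand, with the matches in capitals. These coordinates are on GRCm38.p6, minus strand, and cannot be set against the mm9 peak positions.
Foxp1, chr6:99521170-99521199: ccgcgcccagaaACAAAGtctcatgccccc
Foxp1, chr6:99266522-99266551: gtaaggcagtggCTTTGTtgtgtttagccc
Foxp1, chr6:99028366-99028395: gcgggcggagccCATTGTgtggggcgcagc
Foxa1, chr12:57546239-57546268: ccaattatactgCTTTGTaaACAAAGtgag
Foxa1, chr12:57546102-57546131: gtgcacctcgggCTTTGTaggtgcgagcgt
Foxa2, chr2:148045618-148045647: agataatattaaCTTTGTgatcaaatattg
The first Foxa1 stretch held both orientations of the letters, in inverted order and starting 145 and 137 bases before the gene start. A match is a description of the letters and not a binding site.

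All 3 loci held several wild-type peaks, and few of them were called again in the knockout. The Foxp1 window, of 798 kb, had 9 wild-type peaks and no knockout peak. The Foxa1 window, of 209 kb, had 8 wild-type peaks and 1 knockout peak. The Foxa2 window, of 205 kb, had 7 wild-type peaks and 1 knockout peak. Of the 24 wild-type peaks, 2 overlapped a knockout peak by at least 1 bp (8.33%, exact Clopper-Pearson 95% interval 1.03 to 27.0). Such an interval covers counting error only and takes peaks as independent, which neighbouring peaks are not. The background over the whole wild-type list was 8.15%, so the share in the forkhead windows was near that of all peaks. Both knockout peaks of the windows overlapped a wild-type peak, as did 66.7% of the whole knockout list.

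**Figure D1:**
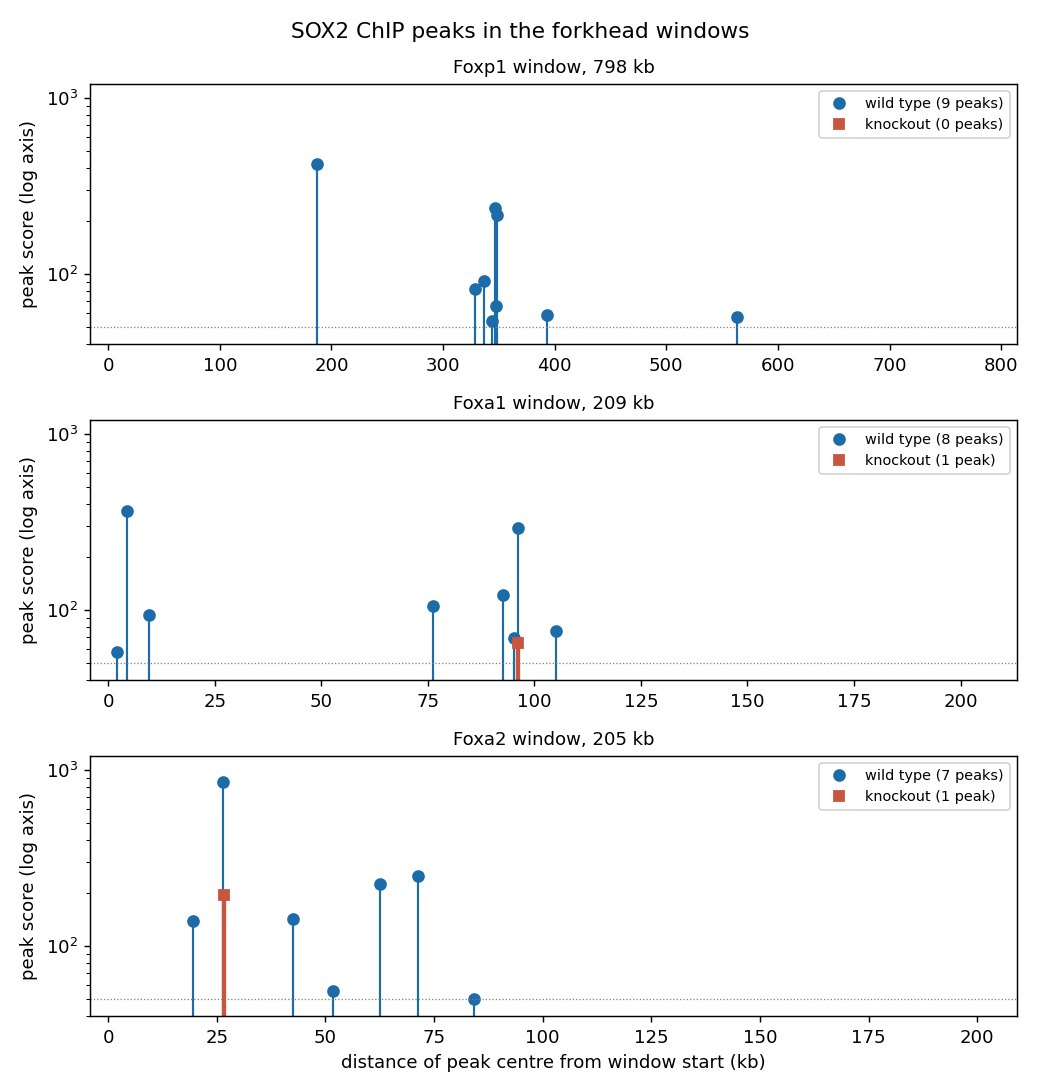
Score of each SOX2 ChIP peak (log axis) against the distance of its centre from the start of its window in kb, for wild-type (circles) and knockout (squares) peaks; the dotted line marks a score of 50. The Foxp1 window has 9 wild-type peaks and no knockout peak, and the single knockout peaks at Foxa1 and Foxa2 sit under wild-type peaks with scores of 293.29 and 855.77.

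The density of wild-type peaks was 11.3 per Mb at Foxp1 (exact Poisson 95% interval 5.16 to 21.4), 38.3 at Foxa1 (16.5 to 75.4) and 34.1 at Foxa2 (13.7 to 70.4). The intervals cover counting error only, and since the windows were chosen for their peaks these densities are a description. The whole wild-type list had 2.82 peaks per Mb of the chromosome stretches that the peaks of both lists span. In the knockout the densities were 0 at Foxp1 (up to 4.62), 4.78 at Foxa1 (0.121 to 26.7) and 4.88 at Foxa2 (0.124 to 27.2), and the whole knockout list had 0.344 per Mb. The knockout intervals were wide, since they rested on at most 1 peak each.

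The windows were set beside every non-overlapping tile of the same size on the autosomes and chromosome X. At least 9 wild-type peaks were found in 134 of 3181 tiles of 798 kb, or 4.21%, and the median tile held 1 peak. At least 8 wild-type peaks were found in 25 of 12173 tiles of 209 kb, or 0.205%, and 69.2% of these tiles held none. At least 7 were found in 54 of 12411 tiles of 205 kb, or 0.435%, and 69.8% held none. Few tiles thus reached the counts at Foxa1 and Foxa2, and more reached that at Foxp1. With only peaks of a score of at least 100 counted, the shares were 10.8% for Foxp1, 0.361% for Foxa1 and 0.129% for Foxa2, so the order of the Foxa loci turned round. Among tiles of their own chromosome the shares were 0.356% for Foxa1 and 0.69% for Foxa2. The largest tile counts were 20 for the size of the Foxp1 window and 15 for the sizes of both Foxa windows, so denser stretches existed in each case.

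In the knockout list, 79.9% of the 798 kb tiles held no peak, so the empty Foxp1 window was like most tiles of its size. At least 1 knockout peak, as at Foxa1 and Foxa2, was found in 6.22% of the 209 kb tiles and in 6.04% of the 205 kb tiles.

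**Figure D2:**
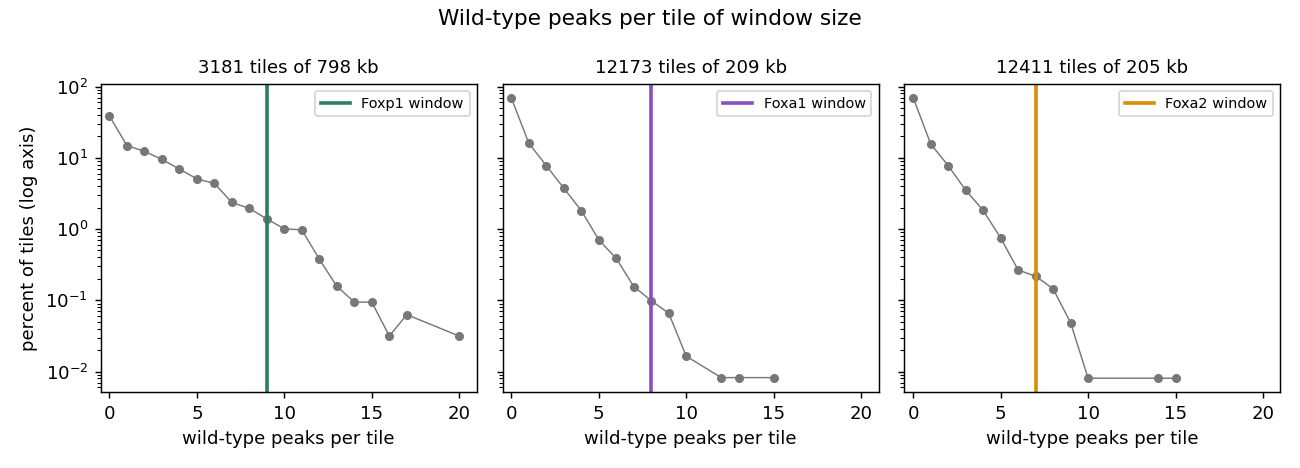
Percent of equal-size tiles (log axis) holding each number of wild-type peaks, with a vertical line at the count in the Foxp1, Foxa1 or Foxa2 window. The Foxp1 line at 9 peaks stands where 4.21% of tiles reach that count or more, against 0.205% for Foxa1 at 8 and 0.435% for Foxa2 at 7.

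At Foxa2, the wild-type peaks included the highest score of the 3 loci. The score is the value the authors' peak caller gave each peak, and it ranks peaks within 1 list. The peak at chr2:147794201-147794871 scored 855.77 and ranked 27 of 7213. Only 0.209% of the 205 kb tiles held a wild-type peak with a score at least as high. The knockout peak at chr2:147794344-147794834 lay wholly within it, with 491 bp of overlap and a centre 53 bp away. It scored 194.75 and ranked 26 of 887, so the site stood near the top of both lists. Among the 592 overlapping pairs of the study, this pair ranked 27 by wild-type score and 26 by knockout score.

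The other 6 Foxa2 peaks of the wild type had no knockout peak, like most of the whole wild-type list, of which 8.15% overlapped one. Next in score were chr2:147839131-147839637 with 249.11 and chr2:147830176-147830888 with 223.54, both in the highest 10% of the wild-type list by score. The peaks at chr2:147810349-147810838 and chr2:147787320-147787753 followed with 142.56 and 139.56. The remaining 2 were close to the lowest score listed, at chr2:147819551-147819754 with 55.82 and chr2:147852145-147852377 with 50.13. The last of these ranked 7196 of 7213, just inside the list's lowest score of 50. The median over the 7 peaks was 142.56, above the median of 82.62 over the whole list, and its exact 95% interval, 50.13 to 855.77, spanned all 7 scores.

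All 7 Foxa2 peaks lay before the midpoint of the window. They filled a stretch of 65.1 kb that began 19.3 kb from the window's start, and the last 121 kb held no peak in either genotype. Gaps between neighbours ranged from 6.45 to 15.5 kb. No pair was closer than 5 kb, while 10.8% of neighbouring pairs in the whole wild-type list were. With only 7 peaks there are few gaps, so this absence does not set Foxa2 apart from the list. The protein-coding neighbours of Foxa2 in the RefSeq table are Pax1 and Sstr4, and the long non-coding RNA gene 9030622O22Rik lies next to it on the Pax1 side. The table is on GRCm38.p6, so peaks were not placed in or between these genes.

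At Foxa1, the highest wild-type score had no counterpart in the knockout list. The peak at chr12:58545162-58545733 scored 362.41 and ranked 236 of 7213, and no knockout peak was closer than 91.4 kb. The median gap between knockout peaks of the whole list was 1423 kb, so this distance was not a long one. Of all wild-type peaks with scores above 221, 44.9% overlapped a knockout peak. Most peaks with such scores thus had no counterpart either, and its absence here is not particular to Foxa1. The second in score, chr12:58637022-58637334 with 293.29, ranked 384 and did overlap a knockout peak. That knockout peak, chr12:58637089-58637276, was 188 bp wide, lay wholly within it and had its centre 4.5 bp away. It scored 65.23 and ranked 402 of 887. Among the 592 pairs it ranked 347 by knockout score while its partner ranked 241 by wild-type score, so it stood lower within its pairs than the Foxa2 pair did.

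The other Foxa1 peaks had low or middle scores and no overlap with a knockout peak, beside an overlap of 8.15% over the whole wild-type list. They were chr12:58633303-58633786 with 120.95, chr12:58616950-58617260 with 104.78, chr12:58550309-58550688 with 93.37, and chr12:58645881-58646241 with 75.6. The lowest were chr12:58636010-58636260 with 69.01 and chr12:58543033-58543279 with 57.59. The peak scoring 69.01 ended 0.828 kb from the knockout peak, so it would count as shared if a distance of up to 1 kb were allowed. The median over the 8 peaks was 99.1, with an exact interval from 57.59 to 362.41 that again spanned all scores.

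The Foxa1 peaks formed a pair of groups with a single peak between. The first group of 3 spanned 7.66 kb and began 2.03 kb from the window's start. It held the peak of 362.41, and a window trimmed by 50 kb at each end would not include it. The second group of 4 spanned 12.9 kb around the peak of 293.29 and lay 92.3 to 105 kb from the start, around and before the window's midpoint at 104.5 kb. Here 4 of the 7 gaps between neighbours were under 5 kb, and the last 104 kb of the window held no peak. Runs of 4 or more wild-type peaks, each no more than 12 kb from the next, made up 0.893% of the 5937 runs of the whole list. A run could be 1 peak, as 4989 of them were, so this is a share of runs and not of peaks. The share of peaks lying in such runs is larger. The Foxa2 window also held a run of 4, over 29.3 kb, and the Foxp1 window a run of 6. Foxa1 overlaps the protein-coding gene Ttc6 in the RefSeq table and lies between Mipol1 and Sstr1, and which gene each peak is nearest to was not measured.

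At Foxp1, no wild-type peak had a knockout counterpart. The highest score was 421.4, at chr6:98961799-98962292, which ranked 175 of 7213 and stood alone with 141 kb to the next wild-type peak. A wild-type peak with a score at least as high was found in 5.12% of the 798 kb tiles. The nearest knockout peaks lay 3924 kb before and 9205 kb after the window. The stretch between them, 13927 kb long, held 32 wild-type peaks in all. Of the 856 gaps between knockout peaks, 22 (2.57%) were as long or longer. That is a share of gaps and not of the genome, since a long gap takes in more windows than a short one. It does not show that the window's setting is rare, and 79.9% of tiles of its size held no knockout peak. With 0 of 9 wild-type peaks overlapping, the exact interval of the share ran from 0 to 33.6%, beside a background of 8.15%. The interval again covers counting error only and takes neighbouring peaks as independent.

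Of the other 8 Foxp1 peaks, 6 lay together in 20.1 kb, from chr6:99103775 to 99123832. The strongest of them were chr6:99121842-99122187 with 237.5 and chr6:99123295-99123832 with 216.16, and the gaps between these and the peak of 66.26 at chr6:99122357-99122573 were 0.169 and 0.721 kb. The others were chr6:99111958-99112254 with 91.84, chr6:99103775-99104117 with 82.25 and chr6:99118761-99118985 with 54.18, the lowest score of the window. Runs of at least 6 peaks were 8 of 5937 in the whole list, or 0.135%. That too is a share of runs, most of them single peaks, and the window was chosen for its peaks. The last 2 peaks of the window stood alone, at chr6:99167928-99168215 with 58.34 and chr6:99338364-99338601 with 57.39. Beyond them the final 234 kb held no peak.

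The median Foxp1 score was 82.25 (exact interval 57.39 to 237.5), near the median of 82.62 over the whole list. The order of the medians was Foxp1, Foxa1, Foxa2 from lowest to highest. The interval at each locus is a spread over a few peaks, which are not replicates, and the order is a description. In the RefSeq table Foxp1 overlaps no other protein-coding gene, and its coding neighbours are Gm765 and Eif4e3.

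Taking the loci together, forkhead peaks fell in every 10% class of the wild-type list by score. Their highest score was 855.77, while the highest of the list was 2097.47. Scores reached 100 in 12 of 24 forkhead peaks, against 38.8% of all wild-type peaks. The highest 10% of the wild-type list by score, those above 221, included 7 forkhead peaks, of which 2 were at Foxp1, 2 at Foxa1 and 3 at Foxa2. Of these 7, 2 overlapped a knockout peak and 5 did not, while 44.9% (41.3 to 48.7) of all wild-type peaks in that class did. None of the 17 forkhead peaks with lower scores overlapped a knockout peak. In the whole list the share was 14.7% in the class ranked next and under 8% in each class below. The lowest score in the knockout list was 50.02, and a site that is not listed there has no value, so its signal is unknown.

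**Figure D3:**
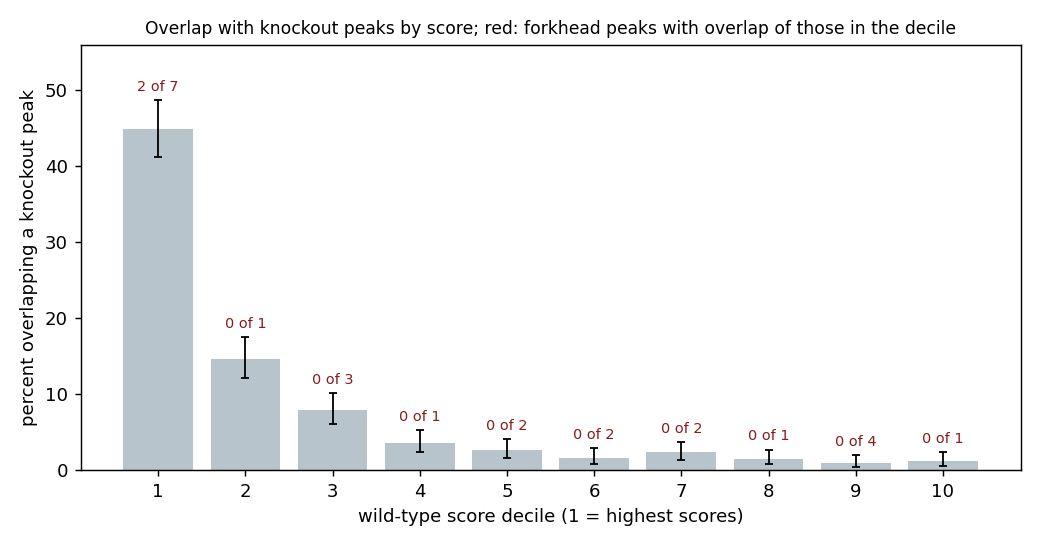
Percent of all wild-type peaks overlapping a knockout peak (bars, exact 95% intervals) in each 10% class of the list by score, with the number of forkhead peaks that overlap of those in the class written in red. The bar is 44.9% for the class of highest scores and 1.25% for that of lowest scores, without a steady fall between. In the highest class 2 of 7 forkhead peaks overlap.

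Forkhead peaks with high scores were mostly wide. Width was not set against score over the whole list, so this has no background and is not shown to be particular to these loci. The 7 peaks of the highest class were 313 to 713 bp wide, and the 6 with scores under 60 were 204 to 288 bp wide. The median width was 344.5 bp over the 24 peaks and 320 bp over the whole list, and 13 of 24 were wider than the latter. The widest was the Foxa2 peak with a score of 223.54, at 713 bp. By locus the medians were 297 bp at Foxp1, 337 bp at Foxa1 and 490 bp at Foxa2. Peaks covered 0.374% of the Foxp1 window, 1.40% of the Foxa1 window and 1.59% of the Foxa2 window.

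**Figure D4:**
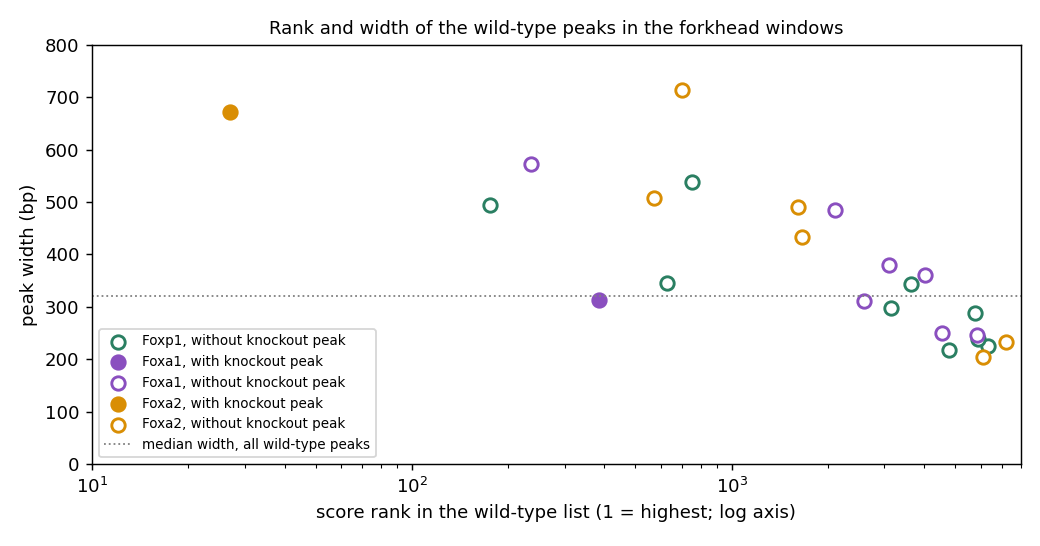
Width in bp of each of the 24 wild-type forkhead peaks against its score rank in the wild-type list (log axis, 1 is the highest), filled where a knockout peak overlaps; the dotted line is the median width of 320 bp over all wild-type peaks. The filled points are at rank 27 for Foxa2 and rank 384 for Foxa1, and peaks of low rank are mostly narrower than the line.

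The peaks were placed unevenly in all 3 windows. Of the 24 wild-type peaks, 22 had their centre before the midpoint of their window, including 8 of 9 at Foxp1, 7 of 8 at Foxa1 and all 7 at Foxa2. The same count was not made over the tiles, so it has no background. Some of these centres were close to the midpoint, as at 92.5, 95.1 and 96.2 kb at Foxa1 (midpoint 104.5 kb) and 393 kb at Foxp1 (midpoint 399 kb). At Foxa2 the last centre was at 84.3 kb, with the midpoint at 102.5 kb. On the RefSeq table all 3 genes are on the minus strand, so transcription runs towards the side that holds more peaks. Whether the placement has to do with the strand was not tested. Peaks of 1 run are near each other and not independent, and the position of each gene within its mm9 window was not measured.

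The read depth of each library is unknown, and the number and the scores of peaks both depend on it. If the wild-type list is restricted to its 887 highest-scoring peaks, as many as the knockout list holds, 8 of 24 forkhead peaks remain, 3 at Foxp1, 2 at Foxa1 and 3 at Foxa2, while 12.3% of all wild-type peaks do. At equal list size the wild type thus had 8 forkhead peaks and the knockout 2, in windows chosen for their peaks. Depth could not be measured here, and its part in this difference was not tested.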

How the data were processed

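SOX2 ChIP-seq was measured in 1 wild-type and 1 knockout library of antral glands. Per the submitters' processing notes, Bowtie2 and MACS were used with the build mm9. The sources used here give no version, setting or control library. The authors deposited 1 peak list per library, with a position and a score for each peak. The lowest deposited score was 50 for wild-type and 50.02 for knockout peaks. The score's scale is not named, so scores rank peaks within a list. Read depth is unknown.

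The 3 windows, the rules for naming peaks and the lists were chosen with earlier results of these data known. All peaks in the windows were named, as the rule for naming asks of Foxa1 and Foxa2 and as its limit of 10 wild-type peaks allows at Foxp1. In place of random windows, all whole tiles of window size were counted, starting at the first peak of each chromosome. Positions are 1-based. Tile and overlap counting was tested on simulated data. Scripts ran in Python 3.11.15 with matplotlib 3.10.9, SciPy 1.17.1, pandas 2.3.3 and NumPy 2.4.6. Alternatives were the score limit, window edges, tile placement, the overlap rule and list size. Other forkhead genes were planned, but an mm9 annotation was not used here.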

Additional observations from a re-analysis of the deposited data

How the results depend on the processing

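Of 47 alternatives run on 14 reported values, 30 changed a count by no more than 1.5 times or kept a share or median no further out than the ends of its interval. Among these 30, the median Foxp1 score moved from 82.25 to 237.5, the upper end of its interval, when only scores of at least 100 were kept. The other 17 are as follows. With scores limited to at least 100 there were 3 wild-type peaks at Foxp1 and 4 at Foxa1 (5 at Foxa2, within 1.5 times), and no knockout peak at Foxa1. With this limit the share of tiles reaching the window's count was 10.8% for Foxp1, 0.361% for Foxa1 and 0.129% for Foxa2. On the same chromosome that share was 0.356% for Foxa1 and 0.69% for Foxa2. Trimming 50 kb from each end left 5 wild-type peaks at Foxa1, 4 at Foxa2 and 0 knockout peaks at Foxa2. The 887 highest-scoring wild-type peaks, an alternative chosen after seeing the data, left 3 at Foxp1, 2 at Foxa1 and 3 at Foxa2. Allowing 1 kb between peaks gave 2 shared peaks at Foxa1. Neighbours at Foxp1 under 10 kb apart numbered 5, and those under 5 kb with a score of at least 100 numbered 1. These filters change the counts by their construction. No paired analysis was possible because each genotype had 1 library, and no replicate could be left out. Unknown depth limits each comparison between genotypes.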

Other observations

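Just outside the windows, within 50 kb of an edge, the wild-type list held 1 further peak at Foxa2 and 1 at Foxa1, and none at Foxp1. The Foxa2 peak, chr2:147767017-147767554, scored 139.32 and ended 0.446 kb before the window. The Foxa1 peak, chr12:58763194-58763564, scored 118.29 and began 13.2 kb after the window. The knockout list held no peak in these flanks.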
